A study of Mus musculus with 25 samples.

Results

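Interferon-stimulated genes are the transcripts that cells switch on when an interferon binds its receptor, and 43 of them were listed here by name as a module. For each gene the probe set with the highest mean over 21 arrays was used, and a gene was kept where that probe set was called present (P) on at least 2 arrays of 1 group. Of the 43 listed genes, 41 had a probe set of their own and 38 passed this filter, among 8341 genes that passed in all. Mx1, Mx2 and Cmpk2 did not pass. Isg15 was measured only on a probe set that it shares with Gm9706, and Ifi44 was not analysed here.

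Male C57BL/6 mice, 8 to 10 weeks old, gave the kidneys from which CD11b+ cells were sorted by Ly6C, and RNA of the sorted cells was measured on Affymetrix arrays. The injured mice had 28 min of bilateral renal ischemia and then reperfusion for 4 h (gates Ly6C High and Ly6C Intermediate), 24 h (Intermediate) or 9 days (Intermediate and Low), with 3 arrays in each of these 5 groups. Sham mice had the same operation without clamping and gave Ly6C High, Intermediate and Low cells on 2 arrays each. Another 3 arrays labelled 58 Sham Ly6C High were kept apart, because the label does not say whether they are separate animals. All mice received saline and buprenorphine per the labels. The labels give each array a number, shared between the gates and taken here as the mouse, name the cells macrophages and do not say whether kidneys or mice were pooled.

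As background, type I and type III interferons signal through kinases of the JAK family to a complex that holds STAT2 and IRF9 and binds the interferon-stimulated response element, while genes that answer interferon gamma often carry the gamma-activated site. The induced proteins sense viral RNA or DNA, degrade RNA, block translation, trap virions, open pathogen vacuoles or feed peptides to MHC class I. In the kidney, monocytes that enter after ischemia and the resident macrophages can both carry this programme, and it is often described after ischemic injury.

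The promoters of 4 members named in later results are shown first, picked because they hold a match to the interferon-stimulated response element. Of these, Stat2, Eif2ak2 and Gbp3 were called in a comparison and Ifit3 was not. Each sequence runs from 250 bases before to 50 bases after the annotated start, is from RefSeq (GRCm38.p6) and is written 5′ to 3′ on the gene's strand. Capitals mark matches to the element, searched as GAAANNGAAA or its reverse complement TTTCNNTTTC on both strands. Stat2 is a subunit of the type I complex (chr10:128270248-128270547, plus strand). Eif2ak2 is the RNA-activated kinase PKR that stops translation (chr17:78882523-78882822, minus strand). Gbp3 is a guanylate-binding GTPase (chr3:142559794-142560093, plus strand, the window of its 2 that holds a match). Ifit3 is an adaptor among the IFIT proteins that bind viral RNA (chr19:34583279-34583578, plus strand).
Stat2: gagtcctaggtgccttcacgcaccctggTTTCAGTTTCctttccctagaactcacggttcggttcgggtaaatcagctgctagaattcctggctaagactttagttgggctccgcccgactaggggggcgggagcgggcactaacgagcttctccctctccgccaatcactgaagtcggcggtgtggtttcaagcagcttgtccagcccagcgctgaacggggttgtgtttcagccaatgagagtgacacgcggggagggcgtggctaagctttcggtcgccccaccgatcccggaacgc
Eif2ak2: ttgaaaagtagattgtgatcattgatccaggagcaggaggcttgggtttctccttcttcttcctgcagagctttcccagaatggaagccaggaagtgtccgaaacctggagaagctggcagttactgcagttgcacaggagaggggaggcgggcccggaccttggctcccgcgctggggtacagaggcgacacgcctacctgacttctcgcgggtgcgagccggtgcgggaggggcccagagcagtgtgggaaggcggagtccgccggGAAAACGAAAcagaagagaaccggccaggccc
Gbp3: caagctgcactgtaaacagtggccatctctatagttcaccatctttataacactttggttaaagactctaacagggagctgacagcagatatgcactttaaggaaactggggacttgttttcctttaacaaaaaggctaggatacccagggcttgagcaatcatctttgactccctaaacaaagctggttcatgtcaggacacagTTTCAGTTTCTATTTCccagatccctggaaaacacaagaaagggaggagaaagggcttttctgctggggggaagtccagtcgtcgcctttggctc
Ifit3: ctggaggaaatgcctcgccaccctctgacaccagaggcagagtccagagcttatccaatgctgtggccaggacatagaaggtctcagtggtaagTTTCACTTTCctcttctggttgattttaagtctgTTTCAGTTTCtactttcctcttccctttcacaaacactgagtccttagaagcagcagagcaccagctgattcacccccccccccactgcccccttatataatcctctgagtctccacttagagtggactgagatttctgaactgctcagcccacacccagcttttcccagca
Counted from the start, with bases before it negative, the match began at -222 in Stat2 and at 18 in Eif2ak2. Gbp3 held overlapping matches that began at -45 and -39, and Ifit3 held separate matches at -156 and -122. The promoter table had windows for 33 of the 43 members, 41 windows in all, with none for Usp18, Parp14, Dhx58 or Iigp1. The response element matched in 15 of these 33 members, 45.5% against 3.99% of all genes in the table. By windows it matched in 39% of theirs against 3.44% of all 32851. The gamma-activated site, searched as TTCNNNGAA, matched in 10 members, in 24.4% of their windows against 8.3% of all windows. These are matches of letters, and none was measured as a bound site.

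Yield differed between arrays, and the module moved with it. The share of all probe sets called P ran from 25.3% to 37.3% in 9 day Low and was 27.4% and 40% in sham Low, but ran from 10.1% to 19.3% in 24 h Intermediate and from 14.4% to 19% in 4 h High. It was under 5% on 3 arrays, called arrays of low yield, which are 9 day Intermediate replicates 8 and 13 and sham High replicate 1. The filter depends on this too: each of the 38 tested members passed through 9 day Low, 30 passed through sham Low, 21 through 4 h High, 16 through 24 h Intermediate and 0 through sham High. Of the 38, 7 passed only through 9 day Low (Herc6, Ifit1, Stat2, Oas2, Oasl1, Adar and Iigp1), so a high value in that group is how these entered the test. The gate labels were checked on Ly6c1 and Ly6c2, which have a probe set in common that read 10.83 to 12.90 on the 4 h and 24 h arrays of both gates, 4.32 to 5.25 in 9 day Low, and 12.57 and 10.37 in sham Low against 2.83 and 12.03 in sham High. The sham High array at 2.83 is one of low yield. The 9 day Intermediate arrays read 5.27, 10.92 and 5.01, the low values again on the arrays of low yield, and 58 Sham High read 12.94, 11.40 and 7.75. Sham Low therefore did not read lower than the other sham gates for this transcript. Replicate 30 of 4 h High carries a second description that names 9 days and was kept by its sample name. The signal ratio of the 3′ to the 5′ Gapdh control probe set, a check of RNA quality, also differed. It was 431 on sham Intermediate replicate 1 and 298 and 28.3 on sham High replicates 1 and 2. On the arrays of injured mice it ran from 0.923 to 19.7. The part of RNA quality in the comparisons with these sham groups was not tested.

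Averaged over the 38 tested members, the module's log2 level was highest among the 8 groups in 9 day Low, at 7.45, 8.13 and 8.78. Sham Low followed at 7.42 and 7.21. The 58 Sham arrays, outside the 8 groups, read 8.49, 8.09 and 8.02. Each of the 38 members passed the filter through 9 day Low, 7 of them only there. The filter thus favours that group, and the order of the groups is a description. The 4 h High arrays lay close together at 6.35, 6.34 and 6.25, and sham Intermediate read 6.15 and 6.31. Lower and wider levels were found in 4 h Intermediate (5.40, 6.33 and 5.46), 24 h Intermediate (6.06, 5.29 and 4.90) and sham High (4.41 and 5.53). The 9 day Intermediate arrays did not form a group: replicate 9 reached 8.14, inside the range of 9 day Low, and the arrays of low yield stayed at 4.35 and 4.38.

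The mean over all genes tested also moved, so each array's module mean is given relative to it. That difference averaged 1.45 ± 0.46 (SD, n = 3) in 9 day Low, 0.43 ± 0.17 (n = 2) for sham Low cells and 0.12 ± 0.13 (n = 3) for 4 h High cells. It averaged 0.05 in sham Intermediate, -0.10 in sham High, -0.17 ± 0.31 in 4 h Intermediate and -0.46 ± 0.32 in 24 h Intermediate. In 9 day Intermediate it averaged 0.28 ± 1.17, and replicate 9 of that group stood at 1.63, inside the range of 9 day Low. The 9 day Low arrays (0.98 to 1.90) did not overlap sham Low (0.31 and 0.55) or any 4 h or 24 h array. Because every member passed the filter through 9 day Low, this too is a description. The 58 Sham arrays stood at 1.23 to 1.62, as high as 9 day Low, although their gate is High. In these bulk samples fewer cells of a type and less RNA per cell cannot be told apart.

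**Figure D1:**
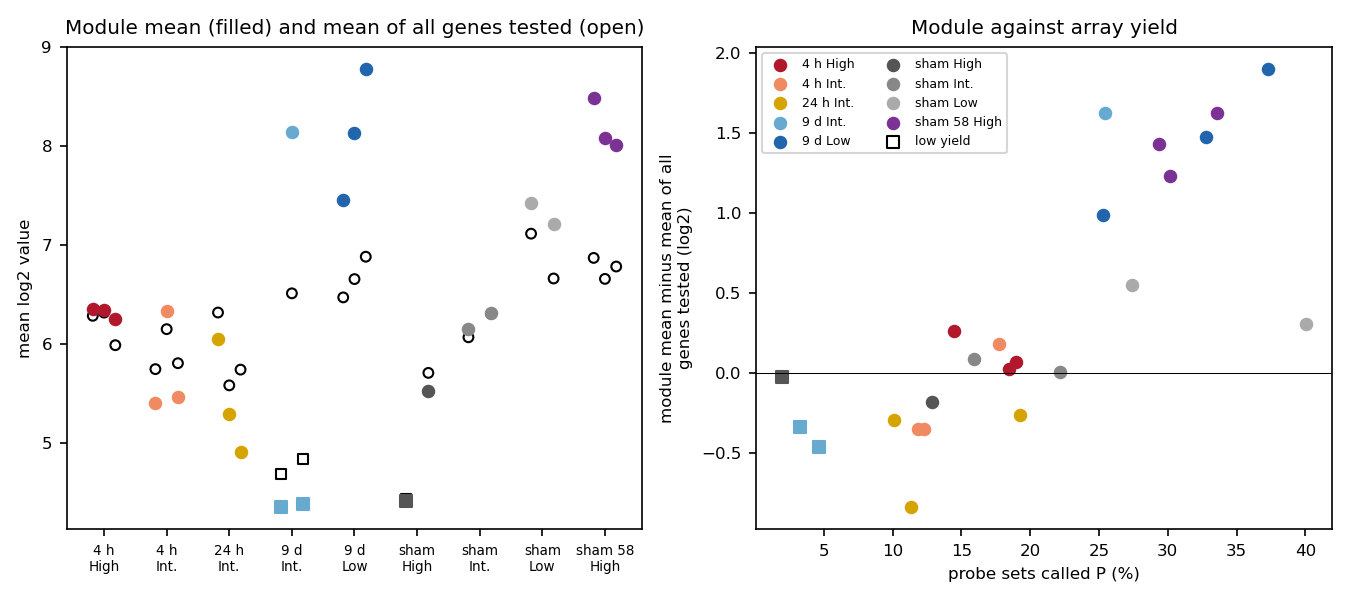
Left, the mean log2 value of the 38 tested members on each array (filled, coloured by group) and the mean of all 8341 genes tested (open); right, the difference of these means against the percentage of probe sets called P, with squares for the arrays of low yield. The 9 day Low and 58 Sham arrays and 9 day Intermediate replicate 9 lie at differences of 0.98 and above, all with more than 25% of probe sets called P, and the sham Low arrays with 27.4% and 40% lie at 0.55 and 0.31.

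**Figure D2:**
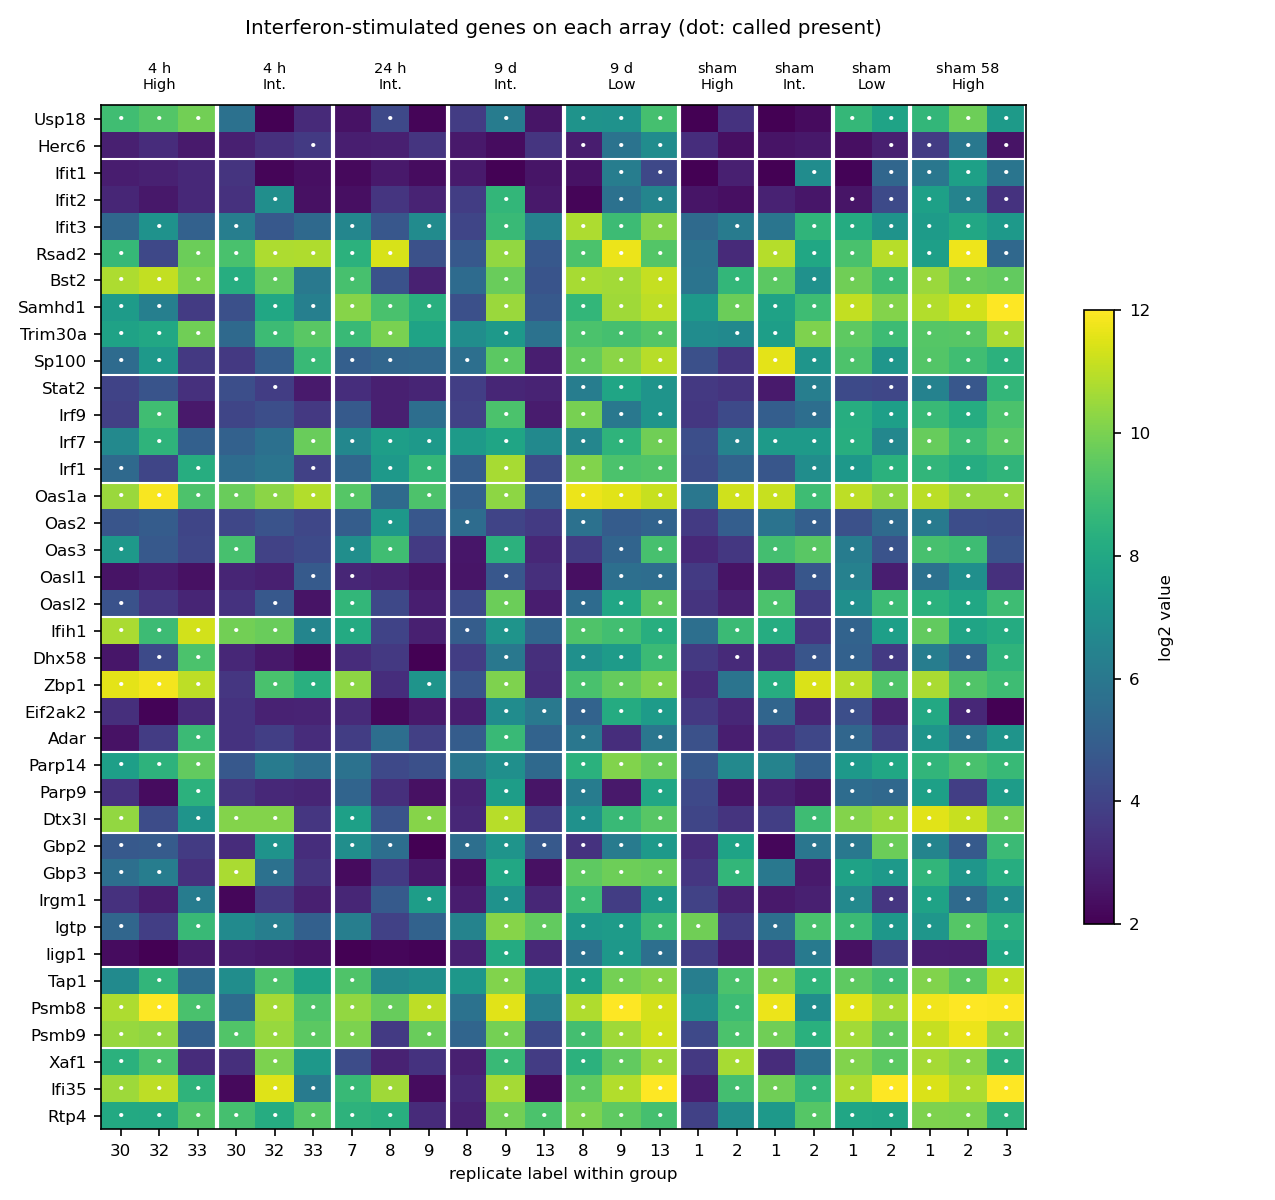
Log2 values of the 38 tested members (rows, in blocks by role) on 24 arrays (columns, by group and replicate label), with a dot where the probe set was called P. Usp18 is bright in 4 h High, 9 day Low, sham Low and 58 Sham High, while Stat2 is bright in 9 day Low and on 58 Sham arrays, and Eif2ak2 and Iigp1 in 9 day Low and on a few arrays elsewhere.

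The clearest comparison of the module was 9 day Low against 24 h Intermediate, where 7 members rose and none fell. They were Parp14, Stat2, Usp18, Eif2ak2, Gbp3, Dhx58 and Iigp1, a mixture of regulators, RNA sensors and GTPases, with log2 differences of 4.02 to 6.78. The median log2 difference over the 38 members was 2.46 and 36 of 38 lay above 0, against a median of 0.65 and 63.8% above 0 over all genes tested. Because 7 members passed the filter only through 9 day Low, the same is given for the other 31, whose median was 2.70 with 30 above 0; all 31 also passed through 9 day Low, so both summaries are descriptions. By limma with Benjamini-Hochberg adjustment over all genes, 4.3% of the 8341 genes were called in this comparison, and 3.39% were called higher. Of the 7 called members, 5 had passed the filter through another group as well and 2, Stat2 and Iigp1, only through 9 day Low. This contrast joins a difference in time with a difference in gate, which cannot be told apart. With the share of probe sets called P as a covariate, 0 members passed. An unadjusted p under 0.05 was found for 6 of the 38 members and for 1270 of the 8341 genes. The members' median was 0.40 against -0.28 for all genes, and 23 of 38 lay above 0. With each array centred on its median 0 members passed. In that setting 11 members and 1899 of the 8341 genes had an unadjusted p under 0.05. The members' median was 0.82 against -0.99 and 28 lay above 0. Without the 3 arrays of low yield, none of them in these groups, 11 members passed, beside 579 of the 8341 genes.

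Other cell types moved with this contrast. The macrophage and monocyte markers averaged 10.36 to 10.75 on the 9 day Low arrays and 6.89 to 8.07 in 24 h Intermediate, with 8 of 8 and 4 to 7 of 8 called P. The 5 measured neutrophil markers averaged 7.13 to 8.60 and 11.83 to 12.20, and S100a8, a calcium-binding protein that neutrophils hold in bulk, read 11.95 to 12.39 against 14.64 to 14.74. Plasmacytoid dendritic cells are a rich source of interferon: of their 5 markers Siglech was called P on 0 of the 21 arrays, Ccr9 on 1, Ly6d on 8, Tcf4 on 11 and Bst2, itself a member, on 15, and the list averaged 5.70 to 6.17 in 9 day Low and 3.66 to 5.70 in 24 h Intermediate. The 4 measured NK cell markers averaged 2.84 to 3.22 and 3.45 to 3.59, with none called P in these groups. The kidney tubule markers averaged 3.01 to 3.71 in 9 day Low, 3.94 to 6.28 in 24 h Intermediate, 7.10 to 8.76 in 4 h High and 8.99 to 9.73 in sham Low. The part of these cells and of yield in the module's differences was not tested.

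**Figure D3:**
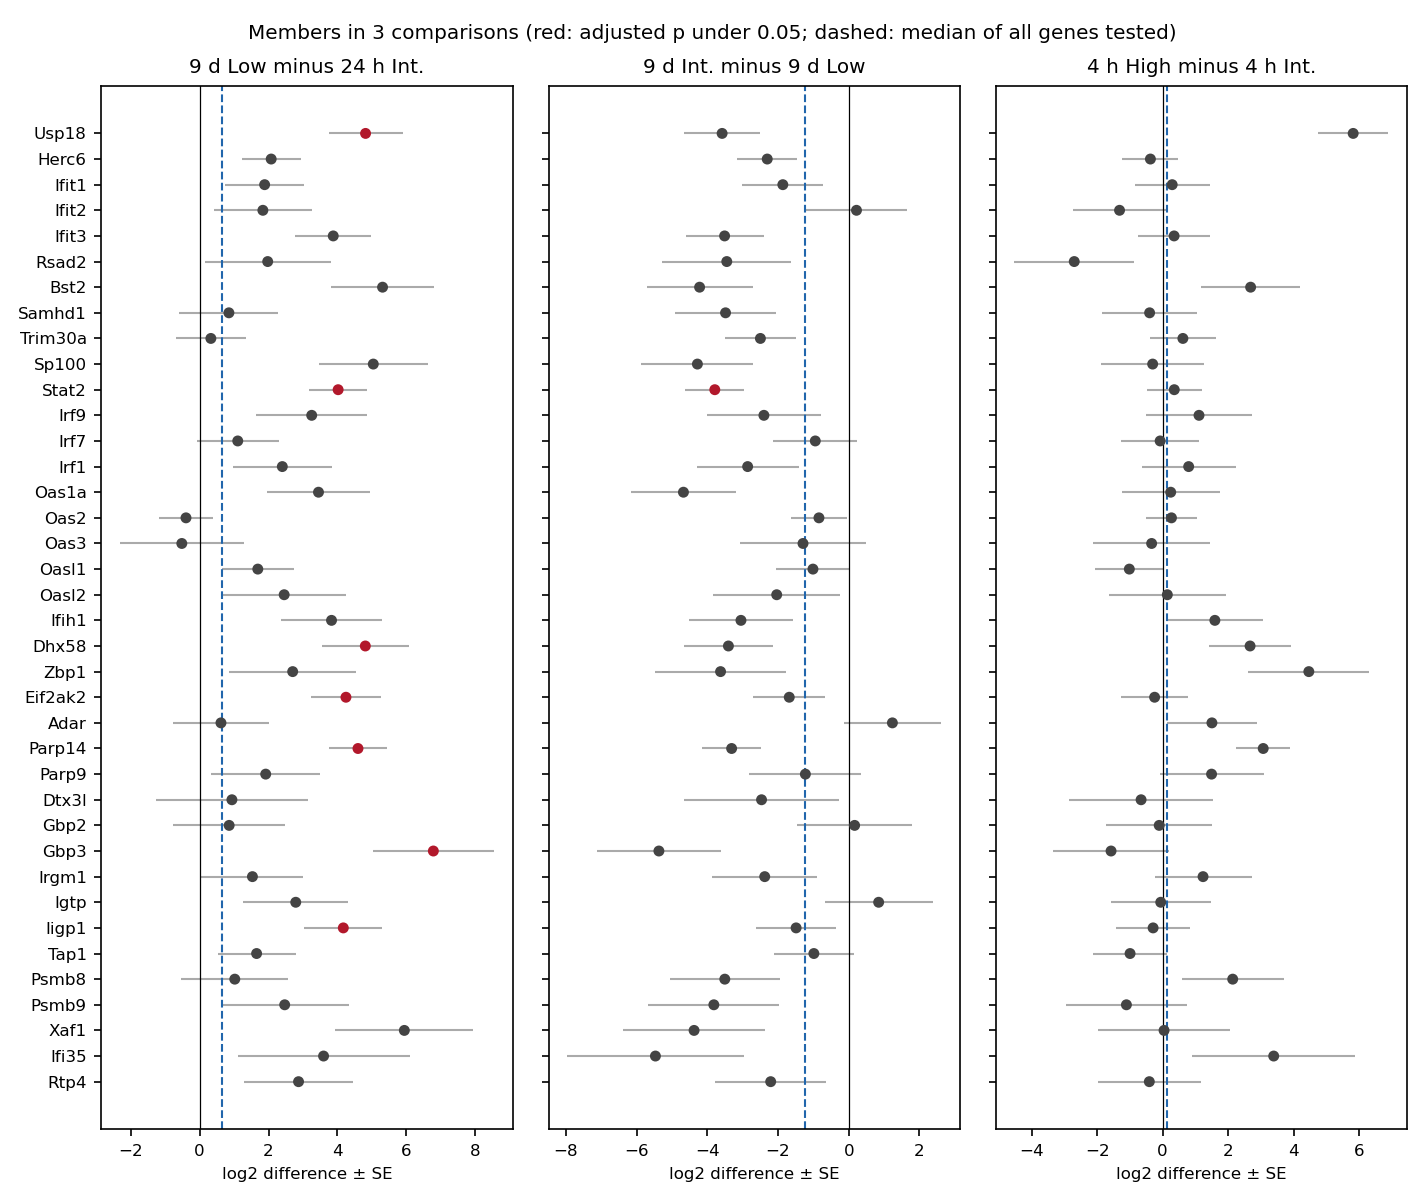
Log2 difference ± SE of each tested member in 3 comparisons, from the model over 21 arrays, with members of adjusted p under 0.05 in red and the median of all genes tested as a dashed line. In 9 day Low minus 24 h Intermediate 7 members are red and most lie right of the dashed line; in 9 day Intermediate minus 9 day Low only Stat2 is red; in 4 h High minus 4 h Intermediate none is red and Usp18 lies farthest out at 5.81.

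The ISG15 system tags proteins with a ubiquitin-like modifier. Usp18, the protease that removes ISG15 and also damps the type I receptor, had the smallest p of the module in the test over all 8 groups. It read 8.93, 9.31 and 9.89 in 4 h High, 7.14, 7.09 and 9.04 in 9 day Low, and 8.67 and 7.79 in sham Low, and it was called P on each of these 8 arrays. Its values were 5.72, 1.79 and 3.19 in 4 h Intermediate and 2.48, 4.21 and 2.12 at 24 h. The sham High arrays gave 1.93 and 3.45, the sham Intermediate arrays 1.88 and 2.27. These groups lay below every array of the former. Of the 21 arrays only 2 further ones called it P, 24 h Intermediate replicate 8 and 9 day Intermediate replicate 9 (6.20).

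Usp18 passed the F test over the 8 groups (adjusted p = 0.00503), as did Parp14, while 3.94% of all genes passed. It was higher in 9 day Low than in 24 h Intermediate by 4.82 ± 1.07 (log2 difference ± SE, limma adjusted p = 0.0200; called P on 1 of 3 arrays in 24 h Intermediate), a call lost without 24 h Intermediate replicate 7 or 9 (adjusted p = 0.0611 and 0.0786) or 9 day Low replicate 13 (0.0839), with a range over the alternatives of 0.00358 to 0.240. It was lower in 24 h Intermediate than in 4 h High by 6.44 on the log2 scale (a difference of -6.44 ± 1.07, adjusted p = 0.0240), the only member called there, where 0.0599% of genes were. This call was kept without 24 h Intermediate replicate 8 and lost without any other single array of either group (adjusted p of 0.0559 to 0.133; range over the alternatives 0.00521 to 0.158). Against sham High it was higher in 4 h High by 6.69 ± 1.20 (adjusted p = 0.0351), at least 89.3-fold, and again the only member called, beside 0.432% of all genes. Folds marked "at least" set each array that did not call P at no less than the lowest value called P on it, a floor near background. All these folds, here and below, are point estimates. The words "at least" refer to detection only and give no lower limit in view of the SE. That last call was lost without sham High replicate 1, which is of low yield (adjusted p = 0.173), and without any 4 h High array (0.0662 to 0.0831), and with 58 Sham High in place of sham High the difference was 0.76 ± 1.06 (adjusted p = 0.810). Over the alternatives its adjusted p ran from 0.00779 to 0.810.

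The classical monocyte markers averaged 10.59 to 11.82 in 4 h High, 5.47 to 10.80 in 4 h Intermediate, 8.86 to 9.32 in 24 h Intermediate and 7.09 to 10.36 in sham High, and their part in these differences of Usp18 was not tested.

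Between the gates of the same mice at 4 h, Usp18 was 5.81 ± 1.07 apart in favour of High with adjusted p = 0.166. In limma 0 of 38 members passed there, and 0% of all genes did, while 4 members (10.5%) had an unadjusted p under 0.05, against 5.99% of all genes. With the animal as a fixed block its adjusted p was 0.456, and with array weights 0.0437. Herc6, the mouse ISG15 ligase, was called P in 9 day Low at 2.79, 5.82 and 6.87 and lay at 3.71 or below on the other arrays of the 8 groups. The shared Isg15 probe set read 8.37, 9.85 and 9.45 in 9 day Low and 9.07, 9.07 and 3.37 in 4 h High, while the sham arrays gave 4.30 and 3.97 for High and 8.98 and 7.81 for Intermediate cells. It was scattered within groups and was not tested.

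Among the direct antiviral effectors, Ifit3 read 10.78, 8.84 and 10.14 in 9 day Low and 6.83 or below on the 4 h and 24 h arrays apart from 7.09 in 4 h High replicate 32. Its difference from 24 h Intermediate was 3.88 ± 1.10 (limma adjusted p = 0.0558) and from 4 h High 4.08 ± 1.10 (adjusted p = 0.0683), so it stayed outside the threshold. Its relatives Ifit1 and Ifit2 were near background on most arrays: Ifit1 was called P on 4 of 21 arrays and Ifit2 on 6, with Ifit2 at 8.62 in 9 day Intermediate replicate 9.

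Bst2, the tetherin that holds virions at the cell surface, read 10.79, 11.09 and 10.04 in 4 h High and 10.70, 10.62 and 11.13 in 9 day Low. It scattered from 2.91 to 9.10 in 24 h Intermediate, and its difference between 9 day Low and that group was 5.31 ± 1.50 (adjusted p = 0.0544). Samhd1 and Trim30a were called P on 16 of 21 arrays each. Samhd1, which depletes nucleotides, read 10.19, 9.13 and 8.31 in 24 h Intermediate and 7.47, 6.33 and 3.75 in 4 h High, without overlap, a difference of 3.36 ± 1.44 (adjusted p = 0.535). Rsad2, the radical-SAM enzyme viperin, reached 10.82 in 4 h Intermediate and 11.71 in 9 day Low but read 4.49 on 1 array of 24 h Intermediate and 4.19 on 1 of 4 h High. The high 4 h level rests on 1 probe set. On a second, looked at after the data had been seen, 4 h Intermediate read 2.87, 2.37 and 2.67. There 4 h minus sham Intermediate was -7.73 against 0.82 on the first, and 9 day Low exceeded 4 h High by 6.53 ± 1.51 (limma adjusted p = 0.0364). Trim30a, a regulator of innate signalling, lay between 7.40 and 10.06 on most arrays, and Sp100, a nuclear body protein, read 9.63, 10.26 and 10.92 in 9 day Low but also 11.57 and 7.23 in sham Intermediate.

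Of the proteins that carry the interferon signal, Stat2 was called in 2 comparisons with 9 day Low, the only group through which it passed the filter. It read 6.24, 7.86 and 7.17 there, 3.31, 2.89 and 3.02 in 24 h Intermediate, 4.03, 4.58 and 3.37 in 4 h High and 3.85, 3.06 and 3.01 in 9 day Intermediate. Sham Low, the matching gate, read 4.24 and 4.15, sham Intermediate replicate 2 reached 6.29, and the 58 Sham High arrays read 6.43, 4.73 and 8.60, so the highest value of Stat2 was on a sham array. No 4 h, 24 h or 9 day Intermediate array reached the lowest 9 day Low array.

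Stat2 was higher in 9 day Low than in 24 h Intermediate by 4.02 ± 0.83 (limma adjusted p = 0.0147), at least 16.2-fold. That call was lost without 24 h Intermediate replicate 8 or 9 (adjusted p = 0.0557 and 0.0531) or 9 day Low replicate 9 (0.0501), and ran from 0.00295 to 0.387 over the alternatives, the highest on a second Stat2 probe set whose difference was 1.12. It was also the member called between the gates at 9 days, where it was lower in Intermediate by 3.79 on the log2 scale (a difference of -3.79 ± 0.83, adjusted p = 0.0473, at least 13.8-fold lower) and 0.623% of all genes were called. The arrays of that comparison come from the same mice: with the animal as a fixed block Stat2 had adjusted p = 0.156, and as a random block 0.0548. Over the alternatives the adjusted p of this call ran from 0.00383 to 0.624. Without the low-yield replicates 8 and 13 of 9 day Intermediate, which left only replicate 9 in that group, the difference was -4.03. The module mean differed between these gates by -2.50 as measured and by 0.0168 without those arrays. Replicate 9 of 9 day Intermediate was at or above the lowest 9 day Low array in 24 of 38 members, 63.2%, and in 69.4% of all genes tested. Without 9 day Intermediate replicate 9 instead, 15 members passed in place of 1, Stat2 among them, while 15.5% of all genes did; without any other single array of either gate Stat2 did not pass (adjusted p of 0.0626 to 0.185). Against sham Low, Stat2 had the smallest p of the module (2.90 ± 0.93, adjusted p = 0.170).

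Irf9, the DNA-binding subunit of the same complex, read 9.94, 5.99 and 7.16 in 9 day Low, with 8.24 and 7.64 for the sham Low arrays. It reached 8.91 in 4 h High replicate 32 and lay at 5.63 or below on the 24 h and 4 h Intermediate arrays. Irf7, which amplifies interferon production, and Irf1, induced by interferon gamma, were spread over the groups: Irf7 ran from 6.60 to 9.83 in 9 day Low and from 6.62 to 7.60 in 24 h Intermediate. Irf1 read 10.09, 9.17 and 9.27 in 9 day Low against 5.28, 7.40 and 8.66 in 24 h Intermediate, 2.40 ± 1.44. None of the 3 passed in any comparison.

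The 2-5A synthetases make the messenger that activates RNase L. Oas1a was called P on 17 of 21 arrays and read 11.72, 11.54 and 11.15 in 9 day Low, close to the 10.99 and 10.38 of sham Low and overlapping the 9.19 to 11.89 of 4 h High. Oas3 was scattered, with 9.02 and 9.43 in sham Intermediate and 3.72, 5.24 and 9.09 in 9 day Low. Oasl2, a synthetase-like protein, was called P on each array of 9 day Low (5.50, 7.92 and 9.58) and sham Low (6.97 and 8.87) and otherwise on single arrays of a group, such as 8.63 in 24 h Intermediate replicate 7. Oas2 and Oasl1 were near background on most arrays. No member of this family passed in any comparison, including 9 day Low against 24 h Intermediate, where Oas2 and Oas3 were the 2 members below 0 (-0.40 and -0.52).

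**Figure D4:**
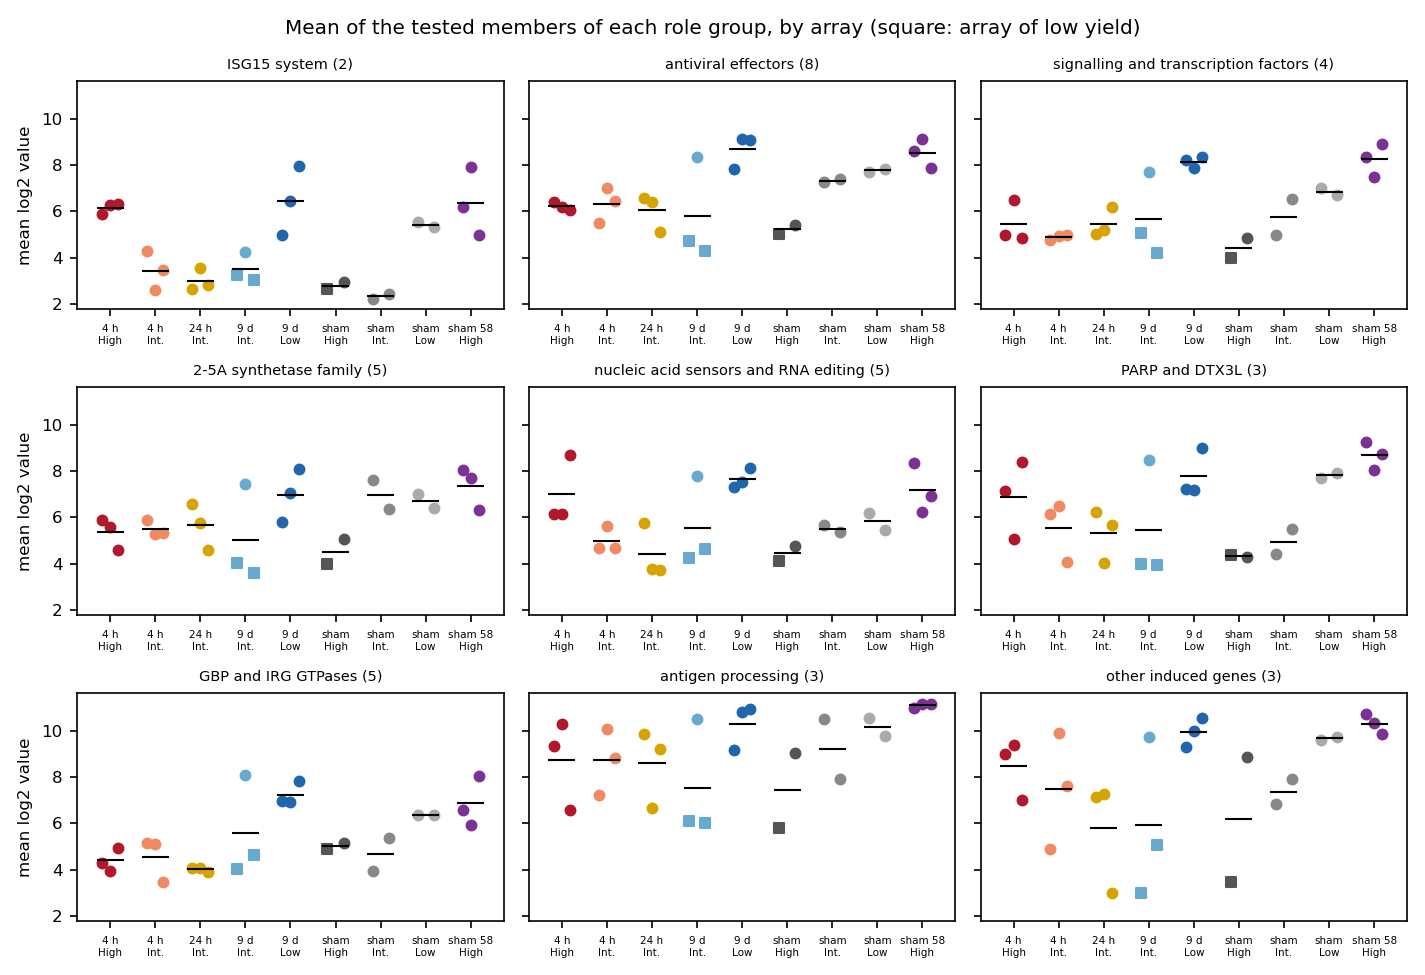
Mean log2 value of the tested members in each of 9 role groups, by array, with a line at the group mean and squares for arrays of low yield. The mean of the 2 ISG15 system genes is split between 4 h High, 9 day Low, sham Low and 58 Sham on one side and the remaining groups on the other. In 4 h High and sham Low this split is that of Usp18 alone, since Herc6 averaged 2.96 and 2.64 there and 3.33 in 4 h Intermediate. The antigen-processing genes average between 7.43 (sham High) and 11.1 (58 Sham) in every group.

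Of the nucleic acid sensors, 2 were called. Eif2ak2, the kinase PKR, read 5.18, 8.14 and 7.50 in 9 day Low and 3.45 or below on each 4 h and 24 h array, and it was also called P in 9 day Intermediate replicates 9 (6.88) and 13 (6.04, an array of low yield) and at 5.25 in sham Intermediate replicate 1. It was higher in 9 day Low than in 24 h Intermediate by 4.25 ± 1.02 (limma adjusted p = 0.0274, at least 19-fold), a call kept without 9 day Low replicate 8 and lost without any other single array of either group (adjusted p of 0.0556 to 0.101; range over the alternatives 0.00541 to 0.324), and its second probe set gave a difference of 2.00 (adjusted p = 0.179). It was also higher than in 4 h High, by 4.06 ± 1.02 (adjusted p = 0.0496, at least 16.7-fold). In this last comparison it was the only member called, and 1.88% of all genes were. That call lay at the threshold: it was lost with the animal as a random block (adjusted p = 0.0525; range over the alternatives 0.00782 to 0.345), and without any of the 3 arrays of 4 h High or replicate 9 or 13 of 9 day Low.

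Dhx58, the helicase LGP2 that tunes RNA sensing, read 7.02, 7.50 and 8.83 in 9 day Low and 3.27, 3.65 and 2.01 in 24 h Intermediate, a rise of 4.81 ± 1.26 (adjusted p = 0.0399, at least 28-fold). In 4 h High it was split, at 2.59, 4.24 and 9.17. The call was lost when any single array of either group was left out (adjusted p of 0.0626 to 0.141), and over the alternatives ran from 0.0132 to 0.962, the highest on a second probe set that stayed between 2.40 and 4.60 on the 21 arrays. Ifih1 and Zbp1, sensors of double-stranded RNA and of Z-form nucleic acid, had another shape and were highest in 4 h High. Ifih1 read 10.74, 8.84 and 11.31 there, 9.24, 8.99 and 8.28 in 9 day Low and 8.11, 4.03 and 2.89 in 24 h Intermediate (24 h minus 4 h High, -5.29 ± 1.47, adjusted p = 0.251). Zbp1 read 11.59, 11.82 and 10.99 in 4 h High against 3.24 and 5.86 in sham High (6.92 ± 2.06, adjusted p = 0.142), and 8.22 and 11.45 in sham Intermediate. On a second Zbp1 probe set the sign of that difference turned (-2.01). Adar, the RNA-editing deaminase, reached 8.81 on 1 array of 4 h High and 8.79 in 9 day Intermediate replicate 9, and was not called P in 4 h or 24 h Intermediate.

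Parp14 and Parp9 are ADP-ribosyltransferases and Dtx3l the ubiquitin ligase that partners Parp9. Parp14 shared the pattern of Usp18: it read 7.65, 8.48 and 9.61 in 4 h High, 8.38, 10.11 and 9.73 in 9 day Low and 7.37 and 7.95 in sham Low. Both Intermediate groups were lower, at 4.75 to 6.15 for 4 h and 5.77, 4.21 and 4.46 for 24 h. The sham High arrays gave 4.77 and 6.72 and the sham Intermediate arrays 6.49 and 5.07, and none of these 10 arrays called it P. It rose from 24 h Intermediate to 9 day Low by 4.60 ± 0.83 (limma adjusted p = 0.0084, at least 24.2-fold), and no removal of a single array ended that call, whose adjusted p ran from 0.00113 to 0.109 over the alternatives. It passed the F test (adjusted p = 0.0244), though not without 9 day Low replicate 9 or 13 (adjusted p = 0.0634 and 0.0659; range over the alternatives 0.0035 to 0.197). Against 4 h Intermediate the 4 h High arrays stood 3.07 ± 0.83 apart (adjusted p = 0.405).

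A second Parp14 probe set kept only part of this: it read 9.71, 8.60 and 7.93 in 9 day Low but 5.39, 4.97 and 5.49 in 4 h High, no higher than the 6.05, 5.21 and 5.65 of 4 h Intermediate. The pattern at 4 h therefore rests on 1 probe set. Parp9 was called P on 6 arrays, with 6.20, 2.67 and 7.90 in 9 day Low and 5.55 and 5.38 in sham Low. Dtx3l read 7.07, 8.77 and 9.40 in 9 day Low and 10.16 and 10.48 in sham Low, and was wide in 4 h High (10.36, 4.34 and 7.18), 4 h Intermediate (10.13, 10.15 and 3.58) and 24 h Intermediate (7.70, 4.57 and 10.17).

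**Figure D5:**
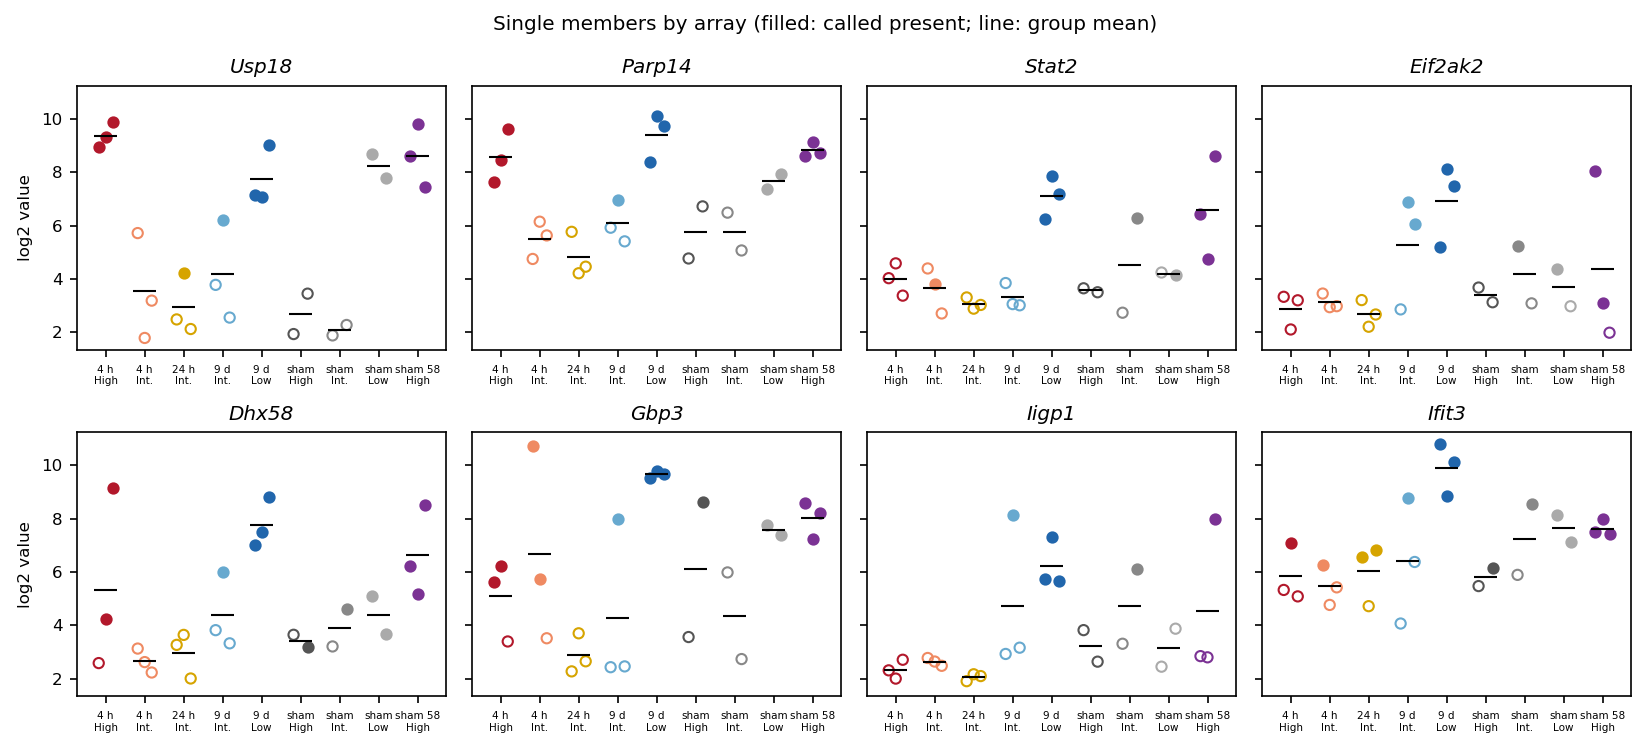
Log2 values of 8 members by group, with filled points where the probe set was called P and lines at the group means. Usp18 and Parp14 are high in 4 h High, 9 day Low, sham Low and 58 Sham High; Stat2, Eif2ak2, Dhx58, Gbp3, Iigp1 and Ifit3 have their highest group mean in 9 day Low.

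Guanylate-binding proteins and immunity-related GTPases attack vacuoles that hold pathogens and respond above all to interferon gamma. Gbp3 read 9.52, 9.77 and 9.69 in 9 day Low, the tightest level of any called member, and 2.28, 3.71 and 2.66 in 24 h Intermediate. It rose between these groups by 6.78 ± 1.76 (limma adjusted p = 0.0382), at least 110-fold as a point estimate with this wide SE. It also reached 10.74 in 4 h Intermediate replicate 30 and 8.63 in sham High replicate 2, and read 7.78 and 7.40 in sham Low. Iigp1, a GTPase that coats vacuoles, read 5.72, 7.31 and 5.65 in 9 day Low and 1.91, 2.17 and 2.10 in 24 h Intermediate, a rise of 4.17 ± 1.13 (adjusted p = 0.0451, at least 17.9-fold). For both genes the call was lost when any single array of either group was left out, with adjusted p up to 0.146, and over the alternatives it ran from 0.00606 to 0.417 for Gbp3 and from 2.71e-04 to 0.476 for Iigp1.

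Iigp1 was called P on just 2 arrays outside 9 day Low among the 21, at 8.13 in 9 day Intermediate replicate 9 and 6.12 in sham Intermediate replicate 2. The 58 Sham High arrays read 2.85, 2.80 and 7.98, the last called P and above every 9 day Low array. The second Iigp1 probe set, looked at after the data had been seen, was more uniform within 9 day Low, at 7.52, 8.68 and 8.67. It read 3.60 or below on every other array of the injured groups and 4.51 and 3.08 in sham Low. The 58 Sham High arrays read 2.85, 6.34 and 8.66 on it, the last within the range of 9 day Low. On that probe set 9 day Low was higher than 24 h Intermediate by 5.47 ± 0.66 (limma adjusted p = 2.71e-04), than sham Low by 4.50 ± 0.74 (adjusted p = 0.00754) and than 9 day Intermediate by 5.69 (a difference of -5.69 ± 0.66 for Intermediate minus Low, adjusted p = 5.95e-04). Iigp1 passed the filter only through 9 day Low, and this probe set was taken up after its values were seen and called P on 5 of the 21 arrays. These p-values are therefore a description and no independent support. The 2 probe sets disagree on 9 day Intermediate replicate 9, at 8.13 and 3.19. Gbp2, Irgm1 and Igtp overlapped between groups: Igtp, for example, read 7.34, 7.50 and 8.87 in 9 day Low but 10.18 and 9.61 in 9 day Intermediate and 9.84 in sham High replicate 1.

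Tap1 moves peptides into the endoplasmic reticulum, and Psmb8 and Psmb9 are subunits of the immunoproteasome. Their mean ran from 7.43 in sham High to 10.3 in 9 day Low. Psmb8 was called P on 17 of 21 arrays and read 10.81, 11.98 and 11.36 in 9 day Low, 10.40, 9.68 and 11.02 in 24 h Intermediate and 10.77, 11.96 and 9.11 in 4 h High. Psmb9 and Tap1 likewise overlapped in all these groups. Of the remaining members, Xaf1, a partner of the apoptosis inhibitor XIAP, read 8.44, 9.58 and 10.54 in 9 day Low and 4.31, 2.98 and 3.46 in 24 h Intermediate (5.94 ± 2.00, adjusted p = 0.103), but its second probe set gave a difference of -0.0085. Ifi35 and Rtp4, an interferon-induced regulator and a receptor chaperone, were called P on 16 of 21 arrays each. Both were wide within 24 h Intermediate, at 8.72, 10.59 and 2.32 for Ifi35 and 8.45, 8.31 and 3.22 for Rtp4,.

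In 9 day Low against sham Low limma called 0 of 38 members and 0.995% of all genes. An unadjusted p under 0.05 was found for 5 members (13.2%) and for 10.5% of all genes. The kidney tubule markers given above differ between these groups without overlap, and their part was not tested. After Stat2 the smallest p were those of Eif2ak2 (3.26 ± 1.14, adjusted p = 0.213), Herc6 (2.52 ± 0.95, adjusted p = 0.266), Iigp1 (3.06 ± 1.26, adjusted p = 0.352) and Dhx58 (3.39 ± 1.41, adjusted p = 0.367). The values of Stat2, Eif2ak2, Iigp1 and Dhx58 did not overlap between these groups, and those of Herc6 and Usp18 did. Further members also separated, among them Ifit3, Gbp3, Bst2 and Parp14 as higher and Dtx3l as lower in 9 day Low. How many of all genes separate in this way was not counted, so the separation is a description. On the second probe sets the values of Stat2 and Dhx58 overlapped, and those of Eif2ak2 and Iigp1 did not.

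In the Intermediate gate 0 of 38 members passed in limma at 4 h, 24 h or 9 days against sham Intermediate, beside 0.216%, 0.456% and 0.683% of all genes called. An unadjusted p under 0.05 was found for 0, 1 and 1 members (0%, 2.63% and 2.63%), against 7.06%, 9.63% and 12.6% of all genes. These comparisons share their 2 sham arrays, and replicate 1 of these had the Gapdh ratio of 431 given above. Sp100 had the smallest p at 4 h and 24 h, with differences of -3.59 ± 1.77 and -4.17 ± 1.77 (adjusted p = 0.721 and 0.433), and Oas3 at 9 days with -4.50 ± 2.00 (adjusted p = 0.356). From 4 h to 24 h 0 members passed and 0.12% of all genes were called. At an unadjusted p under 0.05 there were 2 members (5.26%), against 7.23% of all genes. Ifih1 led with -3.70 ± 1.47 (adjusted p = 0.536). From 24 h to 9 days 0 members passed and 0.384% of all genes were called. At an unadjusted p under 0.05 there were 4 members (10.5%), against 11.5% of all genes, led by Eif2ak2 with 2.57 ± 1.02 (adjusted p = 0.309).

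Neither difference between gates in the response to injury passed for a member. For High minus Intermediate at 4 h, each against its sham group, 0 of 38 passed in limma and 0.012% of all genes were called. An unadjusted p under 0.05 was found for 3 members (7.89%) and for 10.3% of all genes. Zbp1 stood at 9.75 ± 2.92 (adjusted p = 0.266) and Usp18 at 5.20 ± 1.69 (adjusted p = 0.313). For Intermediate minus Low at 9 days 0 passed and 0% of all genes were called. An unadjusted p under 0.05 was found for 2 members (5.26%) and for 7.37% of all genes, with Stat2 at -4.11 ± 1.32 (adjusted p = 0.426).

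Of 31 further genes of the interferon pathway, 29 had a probe set and 24 were tested. The ligand genes Ifnb1, Ifna4 and Ifng were not called P on any of the 21 arrays, and the receptor subunits Ifnar1 and Ifnar2 were called P on 7 and 11. Cgas, the enzyme that turns cytosolic DNA into the messenger for STING, read 11.69, 10.30 and 9.10 in 9 day Low and 7.68 or below on the other arrays of the 8 groups. The 58 Sham High arrays gave 8.87, 5.94 and 6.89 for Cgas. Cgas was called P on 5 of the 21 arrays, and a high value in 9 day Low may be how it entered the test. It was higher in 9 day Low than in 24 h Intermediate (4.35 ± 0.80, limma adjusted p = 0.00848), 4 h High (3.72 ± 0.80, adjusted p = 0.0267) and sham Low (4.64 ± 0.89, adjusted p = 0.0177), and lower in 9 day Intermediate (-4.04 ± 0.80, adjusted p = 0.0367).

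Irf8, a factor of macrophages and dendritic cells that also answers interferon gamma, read 9.41, 11.58 and 10.40 in 9 day Low. The 58 Sham High arrays gave 10.84, 9.40 and 7.63. Irf8 was higher in 9 day Low than in 24 h Intermediate (4.52 ± 1.22, limma adjusted p = 0.0443) and 4 h High (5.37 ± 1.22, adjusted p = 0.0342). Of the 24 tested pathway genes, 2 passed as higher and 0 as lower against 24 h Intermediate and against 4 h High, 1 passed as higher against sham Low and 1 as lower in 9 day Intermediate minus Low, where 4.3%, 1.88%, 0.995% and 0.623% of all genes were called in turn, and 0 passed in the other pairwise comparisons.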

How the data were processed

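The log2 values, as deposited by the authors, were made with RMA in Affymetrix Expression Console, per the submitters' processing notes, with no version given. The deposited signal intensities and their detection letters (present, marginal or absent) come from a separate summary of the same arrays and gave the filter and an alternative. Of 45101 probe sets 34958 name 1 gene. A group-means model over 21 arrays in 8 groups was fitted with limma 3.58.1 in R 4.3.3, with moderated variances (residual df 13, prior df 3.93) and Benjamini-Hochberg adjustment over 8341 genes, and called at 0.05. The model was tested on simulated data. The members and lists were chosen with earlier results of these data known. Members named with values are those called in a comparison, the up to 6 of smallest p in each comparison, the 10 of smallest p in the F test, up to 3 of each role group by share of arrays called P, and those failing the filter; other members and the interferon ligand and receptor genes were added after their values were seen, and pathway genes are otherwise named where called. Same-numbered arrays are taken as the same mouse from the labels; their residuals correlated between -0.0719 and 0.0601. Beyond these numbers no label says that the arrays of a group are separate mice, so p-values measure the spread between arrays, whose number limits the precision.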

Additional observations from a re-analysis of the deposited data

How the results depend on the processing

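The 5 groups of injured cells have 3 arrays each and the sham groups 2, and many members lie near background. Called members number 7 in 9 day Low minus 24 h Intermediate, 1 each in 9 day Intermediate minus Low, 4 h High minus sham High, 24 h Intermediate minus 4 h High and 9 day Low minus 4 h High, 2 in the F test and 0 elsewhere, and the cause of the changes below was not tested. In 9 day Low minus 24 h Intermediate 3 passed with quantile normalization, 4 with no detection filter, 11 without the arrays of low yield, 12 with array weights and 0 with centring on the array median or with yield as a covariate. Over all genes the 359 calls there became 177, 278, 579, 262 and 116 with quantile normalization, no filter, no arrays of low yield, centring and the covariate, and centring turned 283 higher and 76 lower into 36 and 226. With array weights 9.77% of all genes passed there. In 9 day Intermediate minus Low 3 passed with the mean of probe sets (1.68% of all genes) and 20 with array weights (21.1% of all genes), and 0 with deposited signals, quantile normalization, centring, no arrays of low yield, the covariate, the compared groups alone, or the animal as a random or fixed replicate block. In 4 h High minus sham High 0 passed with those first 5 settings, array weights, the compared groups alone and 58 Sham High. In 24 h Intermediate minus 4 h High 0 passed with signals, quantile normalization and the compared groups alone, and 2 with array weights (0.384% of all genes). In 9 day Low minus 4 h High 0 passed with signals, quantile normalization, centring, no filter, the covariate and the random block. There 4 passed with the mean of probe sets (2.67% of all genes), 3 without the arrays of low yield (336 of 8341 genes) and 7 with array weights (6.31%). With the compared groups alone 2 passed, for which the share of all genes is not given. In the F test 1 passed with quantile normalization (179 of 8341 genes), centring (318 genes) and the covariate (261 genes). With signals 1 passed too, and the share of all genes is not given. There 4 passed with the mean of probe sets (5.17%) and 12 with array weights (17.3%). From 0, 1 passed in 9 day Low minus sham Low with the mean of probe sets (1.79% of all genes) and with array weights (3.62%), and in 4 h High minus 4 h Intermediate with array weights (0.156%).

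The module mean of 9 day Low minus 24 h Intermediate was 2.70, and 1.06 when centred. That of 9 day Intermediate minus Low was -2.50, and -1.45 with signals, -0.914 centred and 0.0168 without the arrays of low yield. With single arrays left out, called members ran from 1 to 5 in 9 day Low minus 24 h Intermediate, 0 to 15 in 9 day Intermediate minus Low, 0 to 2 in 9 day Low minus 4 h High and 1 to 9 in the F test. They ran from 0 to 1 in 4 h High minus sham High, 24 h Intermediate minus 4 h High, 9 day minus 24 h Intermediate and 9 day Low minus sham Low. The 15 and the 9 were found without 9 day Intermediate replicate 9, where 15.5% and 14% of all genes passed. Shares of all genes are not given for the other removals. The module means then ran from 2.37 to 3.04 (9 day Low minus 24 h Intermediate), -3.75 to -1.86 (9 day Intermediate minus Low), 0.42 to 0.887 (4 h High minus 4 h Intermediate) and 0.475 to 1.14 (9 day Low minus sham Low). The replicate block changed no other call.

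On second probe sets, which 19 tested members have, the sign turned in 110 of 266 member differences over the 14 comparisons, 5 of 19 in 9 day Low minus 24 h Intermediate. Among the values of named members that each setting was run for, the sign turned for 29, while 1548 kept direction and call, 50 gained and 113 lost a call. Without the arrays of low yield these were Sp100 0.0937, Oas1a 0.273 and Zbp1 0.215 (9 day minus sham Intermediate), Samhd1 1.29 and Psmb8 1.18 (9 day minus 24 h Intermediate) and Iigp1 0.35 (gate difference in response at 9 days). Against 58 Sham High they were Parp14 -0.241 and Rtp4 -1.06, and with sham Intermediate arrays left out Ifit1 ran from -4.44 to 0.415 and Stat2 from -3.22 to 0.338 (24 h minus sham Intermediate, positive without replicate 2). On the second probe set, an alternative chosen after seeing the data, they were Rsad2 0.65, Zbp1 -0.166 and Parp14 -0.353 (4 h gates), Iigp1 0.549 (4 h minus sham Intermediate), Sp100 0.209 and Iigp1 0.48 (24 h minus sham Intermediate), Zbp1 1.64 (9 day minus sham Intermediate) and Samhd1 -0.666 (24 h minus 4 h Intermediate). Further ones were Samhd1 3.4 and Iigp1 -0.219 (9 day minus 24 h Intermediate), Zbp1 -2.01 and Parp14 -1.04 (4 h High minus sham High), Samhd1 -0.999, Zbp1 0.966 and Parp14 0.148 (24 h Intermediate minus 4 h High), Sp100 -0.473 (9 day Low minus 4 h High) and Sp100 -0.173, Zbp1 -2.66 and Parp14 -1.96 (gate difference in response at 4 h).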
